A study of Mus musculus with 4 samples.

Results

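A set of 10 genes of PDGF and VEGF signalling was measured in cultured mouse epidermal keratinocytes: the ligands Pdgfa, Pdgfb, Pdgfc, Vegfa, Vegfb and Vegfc and the receptors Pdgfra, Pdgfrb, Flt1 and Nrp1. Its members were all gene probes of the array that carry one of these 10 names, out of 27962 gene names in all, and they numbered 24 probes on 42 spots. Keratinocytes came from 2 Casp-8F/–K5-Cre mice (F/-) and 2 Casp-8F/+K5-Cre mice (F/+), all with the age entry P3, and RNA was taken at passage 3 (late) and at passage 1 (early). Both genotypes carry one F allele of Casp-8, the gene of the cell death and inflammation protease caspase-8, and the K5-Cre transgene, in which the keratin 5 promoter drives Cre recombinase in basal keratinocytes; the other Casp-8 allele is – in F/- and + in F/+. On each of the 4 two-colour arrays 1 mouse of each genotype was compared, F/- labelled with Cy3 and F/+ with Cy5, 2 arrays at passage 3 and 2 at passage 1. The dyes were never exchanged, so a dye effect and a genotype effect cannot be told apart in any genotype ratio given here.

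PDGF ligands are dimers that bind the tyrosine kinase receptors PDGFRα and PDGFRβ, and in skin they are known as signals from the epidermis to dermal fibroblasts and to the mural cells of vessels. VEGF-A and VEGF-B bind the receptor FLT1 (VEGFR1), VEGF-A also binds KDR (VEGFR2), and VEGF-C acts mainly on lymphatic vessels through FLT4 (VEGFR3), while neuropilin-1 (NRP1) is a co-receptor shared with the class 3 semaphorins. Keratinocytes are a known source of VEGF-A in skin.

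The Casp8 probe, which reads the targeted gene, gave log2 F/- over F/+ ratios of 0.47 and -0.20 on the passage 3 arrays and 0.42 and 0.18 on the passage 1 arrays (pairs 1 and 2). Where the probe lies relative to the deleted part of the gene is not given in the sources used here, and these values check neither the deletion nor the labels. All 12 keratinocyte markers looked up were well above background in every channel. The Cy5 source name of both late arrays gives the first passage, whereas the titles, the descriptions and the passage entry give passage 3; the passage entry was followed, and the F/+ passage comparison rests on it. The 4 arrays shared 1 slide and 1 scan, the share of gene spots that passed the scanner's test for well above background was 75.8% to 85.4% in Cy3 and 80.6% to 87.9% in Cy5, and the number of arrays limits the precision of every value.

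Of the 24 member probes, 22 were well above background in both channels on all 4 arrays and were tested. The other probes, Pdgfc A_52_P408629 and Flt1 A_52_P650151, were left out: the first was well above background on 0 arrays in Cy3 and on 1 in Cy5, the second on 0 arrays in either channel. No spot of a member was saturated. Each gene had at least 1 tested probe and is represented by its brightest one, with the others given beside it. Level means the normalised log2 intensity of one channel, and ratio means the log2 of F/- over F/+ on one array. The p-values come from limma and are Benjamini-Hochberg adjusted over all probes tested. A probe is called under 0.05. These p-values rest on the spread between these few arrays. The same pairs of mice were used at both passages, per the series' design text, but the main genotype fit treats the 4 arrays as independent. The SDs with n = 4, the 95% intervals and the p-values over both passages therefore do not allow for the repeated use of each pair.

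The promoters of 3 ligands are shown because the brightest probes of Vegfc, Pdgfc and Vegfa moved together over the 8 channel values. Pearson r was 0.95 between Vegfc and Pdgfc, 0.88 between Vegfc and Vegfa and 0.78 between Pdgfc and Vegfa. Pdgfb, of which no window is shown, moved with them too, at r of 0.91 with Vegfc, 0.91 with Vegfa and 0.82 with Pdgfc. So did the receptor gene Pdgfrb, also without a window, at 0.87 with Vegfc, 0.78 with Pdgfc and 0.75 with Vegfa. Each gene stands here by its brightest probe only. For Vegfa the other probes did not share the rise from passage 1 to passage 3. Vegfa A_51_P482552 changed by 0.07 in F/- and -0.17 in F/+, and Vegfa A_52_P249424 by -0.07 and -0.24. The 8 values share 4 arrays, 4 mice and 2 passages, so these correlations are descriptions. The windows are the 250 bases before the RefSeq start site in build GRCm38.p6, read 5′ to 3′ on the gene's strand, with every GC box (GGGCGG on either strand) in capitals. They lie at chr8:54077282-54077531 on the plus strand (Vegfc), chr3:81036166-81036415 on the plus strand (Pdgfc) and chr17:46032378-46032627 on the minus strand (Vegfa, the farther upstream of its RefSeq start sites).
Vegfc: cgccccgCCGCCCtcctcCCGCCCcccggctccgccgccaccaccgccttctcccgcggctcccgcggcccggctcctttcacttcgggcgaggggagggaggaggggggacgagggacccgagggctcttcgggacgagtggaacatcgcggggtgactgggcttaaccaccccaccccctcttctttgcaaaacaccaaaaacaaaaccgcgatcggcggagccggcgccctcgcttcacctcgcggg
Pdgfc: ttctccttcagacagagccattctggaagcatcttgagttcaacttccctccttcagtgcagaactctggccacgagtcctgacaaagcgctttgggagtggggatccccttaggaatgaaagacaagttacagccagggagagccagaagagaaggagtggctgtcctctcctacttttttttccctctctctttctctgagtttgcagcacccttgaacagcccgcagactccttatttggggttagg
Vegfa: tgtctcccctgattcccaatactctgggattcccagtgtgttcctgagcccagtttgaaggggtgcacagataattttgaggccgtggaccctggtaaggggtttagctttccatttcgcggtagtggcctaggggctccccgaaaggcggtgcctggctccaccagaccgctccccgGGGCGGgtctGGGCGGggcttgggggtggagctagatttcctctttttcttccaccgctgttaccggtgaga
Vegfc and Vegfa held 2 GC boxes each and Pdgfc held 0, against 32.7% of 32851 mouse promoter windows of this length with at least 1. None of these 3 windows held the hypoxia response core ACGTG (16.6% of all windows), the AP-1 site TGANTCA (6.7%) or TATAAA (12.4%), all searched on both strands. GC content was 71.6% in Vegfc, 50.8% in Pdgfc and 59.2% in Vegfa, against a median of 52.4% over all windows. The window of the other Vegfa start site, chr17:46025164-46025413 on the minus strand, held 1 ACGTG and 1 GC box. A match is only a description of these letters.

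The genotype comparison asks how the PDGF and VEGF genes differed between keratinocytes of Casp-8F/–K5-Cre mice and those of Casp-8F/+K5-Cre mice. Over both passages, Pdgfb and Vegfc were higher in F/- by 2.50-fold and 2.45-fold and Nrp1 was lower in F/- by 1.29-fold, each by its brightest probe. With all probes counted, 5 of 22 were called (Pdgfb with both probes, Vegfc, 1 of 3 Vegfa probes, and 1 of 3 Nrp1 probes in the lower direction), where 8.84% of all 35563 probes tested were called (5.85% higher and 2.99% lower). The median of the 10 brightest probes was 0.38 on the log2 scale and that of all 22 tested member probes 0.12, beside -0.01 over all probes tested. Ratios were above 0 on all 4 arrays for 8 of 22 member probes and below 0 on all 4 for 3, where 19% and 19.9% of all probes were. Taken over both passages, the 4 F/- levels lay above the 4 F/+ levels without overlap for 0 of 22 member probes and below them for 1, Nrp1 A_52_P174942, where 2.12% and 1.28% of all probes did. Of all called probes 2081 were higher and 1064 lower in F/-, a split that median centring in place of loess turned to 917 higher and 3050 lower. None of the member calls was made when the arrays of a pair of mice were averaged first, where 0 probes were called over all. The limma adjusted p was then 0.0510 for both Pdgfb probes, 0.0666 for Vegfc, 0.0630 for Vegfa and 0.0591 for Nrp1. The member calls were also lost, with those of all other probes, when either early array or the late array of pair 1 was left out. Those of Nrp1 and of Vegfa A_51_P482552 were lost without the late array of pair 2 as well. With an array left out, the mean ratio is the average of the passage 3 mean and the passage 1 mean. The lone array of a passage then weighs as much as both arrays of the other passage. Without the late array of pair 1 the mean ratio was 1.16 for Pdgfb A_51_P175262, 1.02 for Vegfc and -0.38 for Nrp1 A_51_P469285. Without the late array of pair 2, the late array of pair 1 stood alone for passage 3. The mean ratio was then 0.66 for Pdgfc A_52_P376360, 0.64 for Pdgfra A_51_P345649, 1.09 for Pdgfrb and -0.35 for Nrp1 A_51_P469285.

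**Figure D1:**
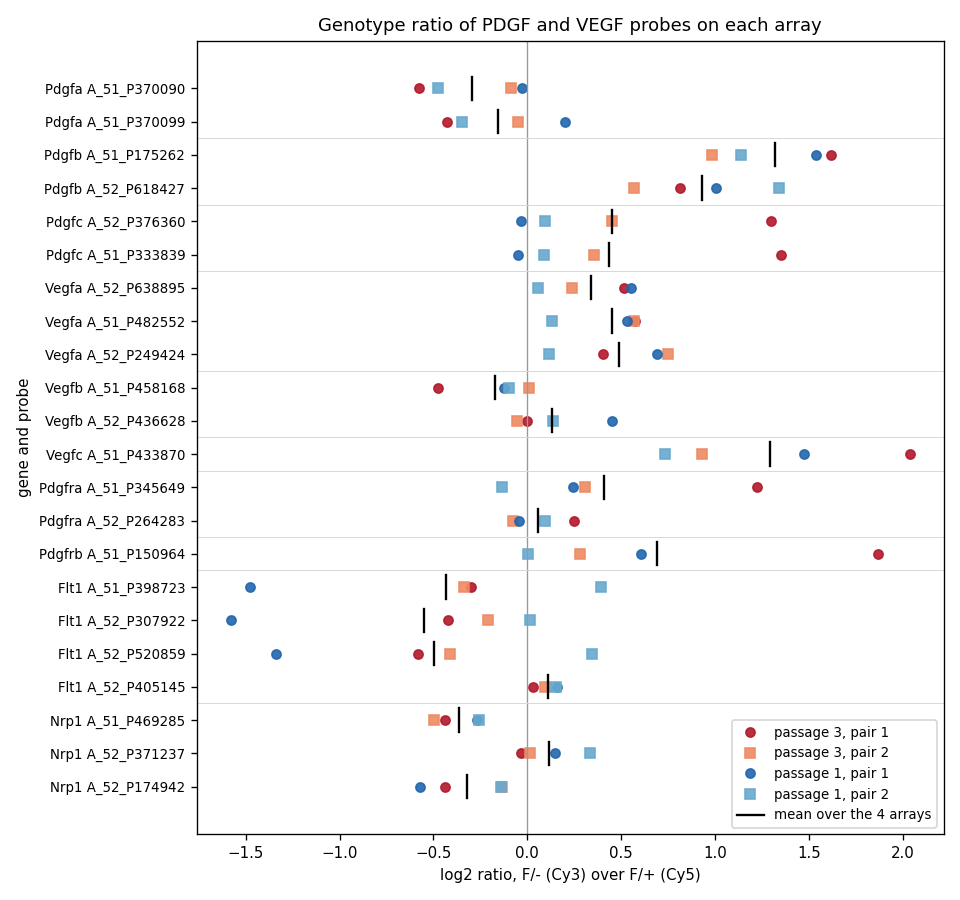
Log2 ratio of F/- over F/+ (x axis) for each of the 22 tested probes of the 10 genes (rows) on the 4 arrays (points, colour for passage and shape for pair); the short line is the mean of the 4 arrays. Pdgfb, Vegfa and Vegfc lie right of 0 on every array, and 3 of the 4 Flt1 probes have a value at or below -1.34 on the passage 1 array of pair 1.

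Among the ligands, Pdgfb, which encodes the PDGF-B chain that recruits mural cells, was higher in F/- with both of its probes. Its brightest probe, A_51_P175262, gave ratios of 1.62 and 0.98 at passage 3 and of 1.54 and 1.14 at passage 1 (pairs 1 and 2). The other probe, A_52_P618427, gave 0.81 and 0.57 at passage 3 and 1.00 and 1.34 at passage 1. All 8 values were above 0. The mean ratio was 1.32 ± 0.31 for the first probe and 0.93 ± 0.33 for the second (SD, n = 4 arrays), with limma adjusted p of 0.0257 for both and 95% intervals of 0.98 to 1.66 and 0.71 to 1.15.

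Vegfc, the lymphatic growth factor, had 1 probe, with ratios of 2.04 and 0.93 at passage 3 and of 1.47 and 0.73 at passage 1. Pair 1 gave the larger ratio at both passages. Its mean was 1.29 ± 0.59 (SD, n = 4; adjusted p = 0.0394; 95% interval 0.72 to 1.87).

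Pdgfc, a ligand that is secreted in latent form and activated by proteolysis, gave ratios of 1.30 and 0.45 at passage 3 and of -0.03 and 0.10 at passage 1. The second tested probe gave 1.35 and 0.36 at passage 3 and -0.05 and 0.09 at passage 1, close to the first in every array. Both passage 3 ratios lay above both passage 1 ratios for both probes. The mean over both passages, 0.45 (SE 0.15, adjusted p = 0.125) and 0.44 (SE 0.17, adjusted p = 0.174), did not pass the threshold, and neither did the passage 3 minus passage 1 difference of the ratio, 0.84 (adjusted p = 0.841; unadjusted 95% interval 0.08 to 1.61) and 0.83 (adjusted p = 0.864; -0.05 to 1.72).

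Vegfa, the main angiogenic ligand of keratinocytes, had 3 tested probes whose 12 ratios were all above 0. The brightest, A_52_P638895, gave 0.51 and 0.24 at passage 3 and 0.55 and 0.06 at passage 1 and did not pass (mean 0.34 ± 0.24, SD, n = 4; adjusted p = 0.113). A_51_P482552, printed on 10 spots of each array, gave 0.57 and 0.57 at passage 3 and 0.53 and 0.13 at passage 1, and was called (mean 0.45 ± 0.21, a 1.37-fold difference; adjusted p = 0.0438). A_52_P249424 gave 0.41 and 0.75 at passage 3 and 0.69 and 0.12 at passage 1, with a mean of 0.49 and an adjusted p of 0.0724. The passage 1 array of pair 2 gave the lowest value for all 3 probes, and the call of A_51_P482552 was lost with median centring (0.27, adjusted p = 0.0667) and with the scanner's own log ratio (0.45, adjusted p = 0.0723).

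Pdgfa, the PDGF-A chain, whose receptor in dermal fibroblasts is PDGFRα, gave -0.57 and -0.09 at passage 3 and -0.03 and -0.48 at passage 1 by its brightest probe (mean -0.29, adjusted p = 0.186). The second probe gave values on both sides of 0, -0.43 and -0.05 at passage 3 and 0.20 and -0.35 at passage 1 (mean -0.16, adjusted p = 0.449). Median centring gave -0.76 for the brightest probe (adjusted p = 0.0262), so this value depended on the scaling. Vegfb, which binds FLT1 and NRP1, gave -0.48 and 0.01 at passage 3 and -0.12 and -0.10 at passage 1 by the brightest probe and -0.002 and -0.06 at passage 3 and 0.45 and 0.14 at passage 1 by the other; the probes disagreed in sign (means -0.17 and 0.13, adjusted p of 0.298 and 0.302), and the sign of the second turned with median centring.

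Among the receptors, Nrp1 was the member lower in F/-. Its brightest probe, A_51_P469285, gave -0.44 and -0.50 at passage 3 and -0.27 and -0.26 at passage 1, with little spread (mean -0.37 ± 0.12, SD, n = 4; adjusted p = 0.0302). A second probe, A_52_P174942, lay below 0 on all 4 arrays too, at -0.44 and -0.14 at passage 3 and -0.57 and -0.14 at passage 1, but did not pass (mean -0.32, adjusted p = 0.113). The third, A_52_P371237, gave -0.03 and 0.01 at passage 3 and 0.15 and 0.33 at passage 1 (mean 0.11, adjusted p = 0.280), a value that turned negative with median centring. The 3 probes thus did not give 1 direction, the mean of all 3 did not pass (-0.19, adjusted p = 0.122), and the called probe missed the threshold with the scanner's own log ratio (-0.52, adjusted p = 0.0508).

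Flt1, the receptor of VEGF-A and VEGF-B, had 3 probes that shared a low value on 1 array. Its brightest probe, A_51_P398723, gave -0.30 and -0.34 at passage 3 and -1.48 and 0.39 at passage 1 (mean -0.43 ± 0.77, SD, n = 4; adjusted p = 0.414). A_52_P307922 gave -0.42 and -0.21 at passage 3 and -1.58 and 0.01 at passage 1, and A_52_P520859 gave -0.58 and -0.41 at passage 3 and -1.34 and 0.35 at passage 1. The low value belonged to the F/- cells of pair 1 at passage 1: by the brightest probe the F/- levels were 12.74 and 12.80 at passage 3 and 11.26 and 12.79 at passage 1, and the F/+ levels were 13.04 and 13.13 at passage 3 and 12.74 and 12.40 at passage 1. Without that array the average of the passage 3 and passage 1 means of this probe was 0.04. The lone passage 1 array then weighed as much as both passage 3 arrays together. The ratios left were -0.30, -0.34 and 0.39, so the sign of this average rests on that weighting. The fourth tested probe, A_52_P405145, gave ratios between 0.03 and 0.16 on the 4 arrays and did not show the low value.

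Pdgfrb, the receptor of PDGF-B on mural cells and fibroblasts, gave ratios of 1.87 and 0.28 at passage 3 and of 0.60 and 0.01 at passage 1 by its 1 probe. The mean, 0.69 ± 0.82 (SD, n = 4; adjusted p = 0.185), was smaller than its spread, and pair 1 gave the larger ratio at both passages. Pdgfra, the receptor of PDGF-A and PDGF-C, gave 1.22 and 0.31 at passage 3 and 0.24 and -0.13 at passage 1 by A_51_P345649, printed on 10 spots (mean 0.41, adjusted p = 0.189). The other Pdgfra probe stayed between -0.08 and 0.25 (mean 0.06, adjusted p = 0.677). Its mean turned to -0.03 without the passage 3 array of pair 1. On that array Pdgfc, Vegfc, Pdgfra, Pdgfrb and the brightest Pdgfb probe all had their highest ratio.

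At each passage by itself 0 of 22 member probes were called, as were 0% of all probes at passage 3 and 0% at passage 1; unadjusted p was under 0.05 for 10 of 22 and 7 of 22 member probes and for 7109 and 7330 of all 35563. The smallest adjusted p of a member was 0.0799 at passage 3 (Pdgfb A_51_P175262) and 0.0701 at passage 1 (Pdgfb A_52_P618427). The difference between the passages in the genotype ratio was not called for any member either, where 0% of all probes were; unadjusted p was under 0.05 for 2 of 22 member probes and 2073 of all probes. These 2 probes, Pdgfc A_52_P376360 at 0.84 and Pdgfb A_52_P618427 at -0.48 (adjusted p = 0.841 for both), pointed in opposite directions.

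The passage comparison asks how the genes differed between passage 3 and passage 1 within each genotype. Pdgfb, Pdgfc and Vegfc were 4.43-fold, 5.98-fold and 6.27-fold higher at passage 3 in F/- cells, and Pdgfb and Pdgfc were 4.56-fold and 3.33-fold higher at passage 3 in F/+ cells. No member fell with passage in either genotype by the test. Counted by probe, 4 of 22 were called in F/-, where 5.11% of all 35464 probes were (2.89% higher and 2.22% lower), and 3 of 22 in F/+, where 5.66% were (3.23% higher and 2.42% lower), all higher. The median of the 10 brightest probes was 0.72 in F/- and 0.49 in F/+. Over all 22 tested member probes it was 0.29 and 0.34, beside 0.01 and 0.02 over all probes tested. Levels at passage 3 lay above those at passage 1 without overlap for 10 of 22 member probes in F/- and 9 of 22 in F/+, where 29.2% and 27.2% of all probes did, and below them for 1 of 22 in each genotype, where 27.5% and 24.7% did. With an early array left out, the member genes lost their calls in both genotypes, and calls over all probes were far fewer too. With the pair as a block 3 member genes were called in F/- and 4 in F/+ (Pdgfb, Pdgfc, Vegfc and Vegfb, all higher). The same block raised the calls over all probes from 1813 to 3938 in F/- and from 2006 to 4123 in F/+.

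**Figure D2:**
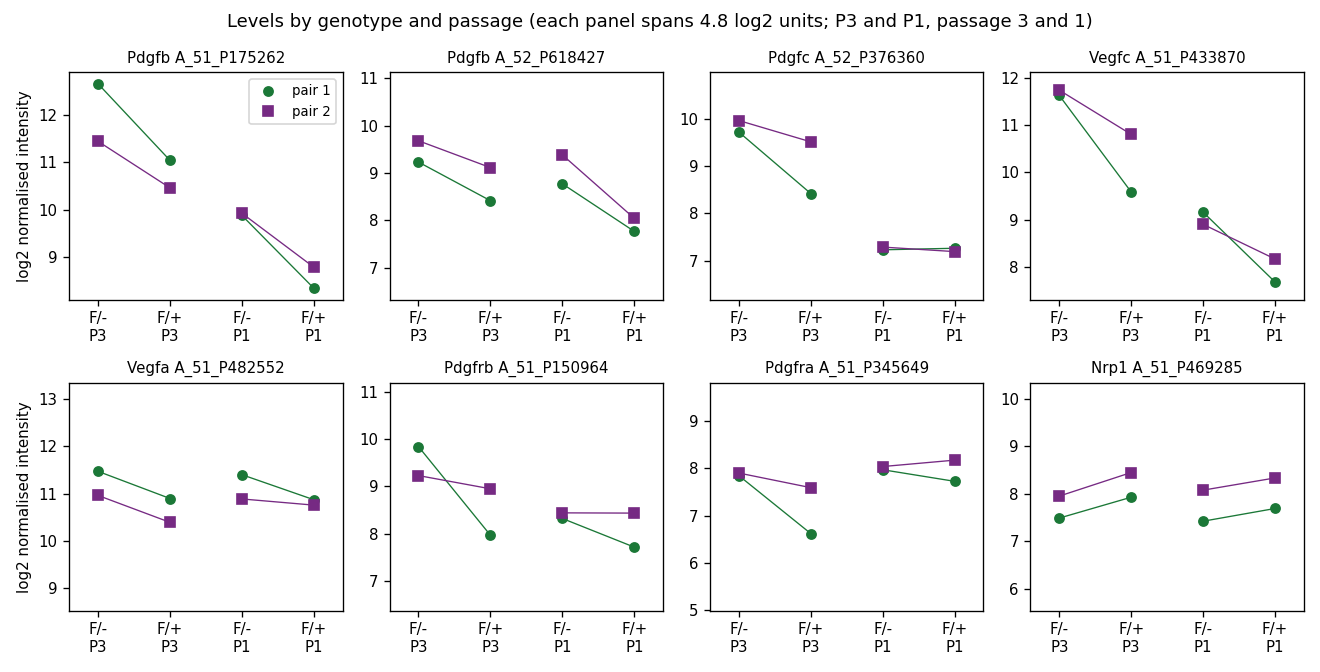
Log2 normalised intensity (y axis, each panel with its own level but the same span) of 8 member probes in F/- and F/+ cells at passage 3 (P3) and passage 1 (P1); points are single RNA samples and lines join the 2 channels of an array. Pdgfb A_51_P175262, Pdgfc and Vegfc are higher at passage 3 in both genotypes without overlap, while Pdgfb A_52_P618427 overlaps between passages in F/-.

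Vegfc levels in F/- were 11.63 and 11.74 at passage 3 and 9.16 and 8.90 at passage 1 (pairs 1 and 2), a difference of 2.65 (SE 0.53, adjusted p = 0.0365). In F/+ they were 9.59 and 10.80 at passage 3 and 7.69 and 8.17 at passage 1, a difference of 2.27 (SE 0.53, adjusted p = 0.0553). Passage 3 lay above passage 1 without overlap in both, and the F/+ value just missed the threshold. With the pair as a block it passed (adjusted p = 0.0173). The highest levels of Vegfc were in F/- at passage 3 and the lowest in F/+ at passage 1, and the other groups, F/+ at passage 3 and F/- at passage 1, lay between them without overlap.

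Pdgfc levels in F/- were 9.72 and 9.96 at passage 3 and 7.23 and 7.29 at passage 1, a difference of 2.58 (SE 0.38, adjusted p = 0.0131). In F/+ they were 8.42 and 9.51 at passage 3 and 7.26 and 7.19 at passage 1, a difference of 1.74 (SE 0.38, adjusted p = 0.0463). This F/+ call was lost without background subtraction (adjusted p = 0.0502), with all probes kept (0.0511) and with the mean of the gene's probes (0.0669). At passage 1 the genotypes overlapped, and at passage 3 both F/- values lay above both F/+ values. The second Pdgfc probe was called in F/- (2.39, adjusted p = 0.0336) and not in F/+ (1.56, adjusted p = 0.111), where it passed with the pair as a block.

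The Pdgfb probes differed in size with passage. A_51_P175262 had F/- levels of 12.65 and 11.44 at passage 3 and 9.87 and 9.92 at passage 1, and F/+ levels of 11.04 and 10.46 at passage 3 and 8.34 and 8.78 at passage 1. These gave differences of 2.15 in F/- (SE 0.40, adjusted p = 0.0276) and 2.19 in F/+ (SE 0.40, adjusted p = 0.0239). A_52_P618427 had F/- levels of 9.23 and 9.68 at passage 3 and 8.77 and 9.38 at passage 1, which overlap, and F/+ levels of 8.41 and 9.11 at passage 3 and 7.77 and 8.04 at passage 1. Its differences were 0.38 in F/- (adjusted p = 0.491) and 0.86 in F/+ (adjusted p = 0.139; 0.0186 with the pair as a block). Both probes therefore gave F/- above F/+, but the size of the passage difference rests on the brighter one.

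**Figure D3:**
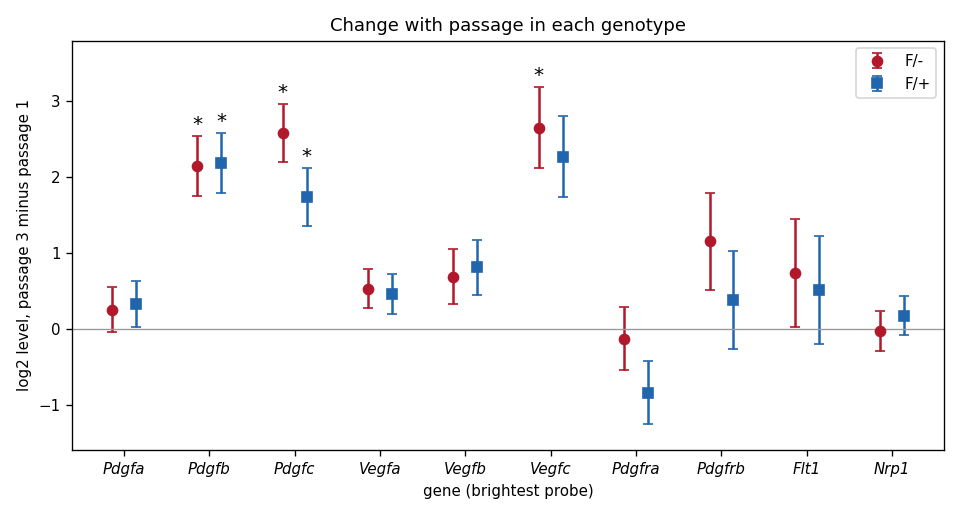
Passage 3 minus passage 1 difference in log2 level (y axis) for the brightest probe of each gene (x axis) in F/- (circles) and F/+ (squares); bars are standard errors of the fit and an asterisk marks an adjusted p under 0.05. Pdgfb, Pdgfc and Vegfc stand between 1.74 and 2.65 in both genotypes, and the other 7 genes lie between -0.84 and 1.15 with no asterisk.

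The remaining members did not pass in either genotype by their brightest probe. Vegfb A_51_P458168 had differences of 0.69 in F/- and 0.81 in F/+, Vegfa A_52_P638895 of 0.53 and 0.46, and Pdgfa A_51_P370090 of 0.25 and 0.33 in the same order. The other probes of these genes gave at least 1 value below 0. Vegfb A_52_P436628 had -0.33 in F/- and -0.01 in F/+, Pdgfa A_51_P370099 had -0.30 and -0.13, Vegfa A_51_P482552 had 0.07 and -0.17, and Vegfa A_52_P249424 had -0.07 and -0.24. Pdgfrb levels in F/- were 9.84 and 9.23 at passage 3 and 8.32 and 8.44 at passage 1, and in F/+ 7.97 and 8.95 at passage 3 and 7.72 and 8.44 at passage 1. Passage 3 lay above passage 1 in F/- and the passages overlapped in F/+, with differences of 1.15 (adjusted p = 0.360) and 0.38 (adjusted p = 0.761). Pdgfra A_51_P345649 was the member with passage 3 below passage 1 without overlap in both genotypes: F/- levels were 7.84 and 7.90 at passage 3 and 7.97 and 8.03 at passage 1, and F/+ levels were 6.62 and 7.59 at passage 3 and 7.72 and 8.17 at passage 1 (differences -0.13 and -0.84, adjusted p of 0.882 and 0.297). The other Pdgfra probe, A_52_P264283, had 0.15 in F/- and 0.09 in F/+. Nrp1 A_52_P371237 was higher at passage 3 in F/+ by 0.69 (adjusted p = 0.0445) and had 0.44 in F/- (adjusted p = 0.156), while the brightest Nrp1 probe had -0.03 in F/- and 0.18 in F/+ and A_52_P174942 had 0.07 and 0.01. That F/+ call was lost with offset 0 (adjusted p = 0.0531), without background subtraction (0.0533), with the stricter filter on dim probes (0.0538), without normalization within arrays (0.0514) and with any 1 array left out (0.0942 to 0.215). The Flt1 probes had differences of 0.74 (A_51_P398723), 0.32 (A_52_P307922), 0.09 (A_52_P520859) and 0.25 (A_52_P405145) in F/-. In F/+ they had 0.52, -0.15, 0.10 and 0.34 in the same order of probes, none of them called.

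The genes most like Vegfc over the 8 channel values, among 1617 probes with enough spread, were Trim34 (Pearson r 0.996), Nt5e (0.994) and Trim12 (0.987). Those most like Pdgfb A_51_P175262, among 2031 probes, were Col4a1 (0.996), which encodes a basement membrane collagen chain, Slco2a1 (0.995), a prostaglandin transporter, and Adcy7 (0.994), an adenylyl cyclase. These are the highest of many correlations over 8 values that share 4 arrays, and they are given as a description.

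Other genes of the pathway were read from lists. Among the other ligands (Pgf, Pdgfd and Vegfd), 1 of 3, Pdgfd, rose with passage, by 1.26 in F/- (adjusted p = 0.0244) and 1.42 in F/+ (adjusted p = 0.0144), and 0 of 3 differed by genotype. Pgf, placental growth factor, had ratios of 0.51 and 0.29 at passage 3 and 0.74 and 0.29 at passage 1 without passing. Among the other receptors (Kdr, Flt4, Nrp2 and Pdgfrl), 1 of 4 fell with passage: Kdr, the main signalling receptor of VEGF-A, which fell by 2.49 in F/- (adjusted p = 0.00075) and fell by 2.86 in F/+ (adjusted p = 0.000374). None of these 4 differed by genotype.

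Among 11 neuropilin partners tested, over both passages Sema3b was higher in F/- (0.46) and Sema3e lower (-0.43). The Sema3e call was lost with the mean of the gene's probes (-0.08, adjusted p = 0.327) and the Sema3b call with the scanner's own log ratio (0.52, adjusted p = 0.0539). With passage Sema3b and Sema3c fell in both genotypes, (Sema3c fell by 2.94 in F/- and fell by 2.63 in F/+), while Plxna3 rose in F/+ (1.10). With the pair as a block the passage calls of Sema3b were lost (adjusted p of 0.0540 in F/- and 0.0572 in F/+), and with the mean of the gene's probes that of Plxna3 was lost (0.66, adjusted p = 0.0717). Among 8 genes of ligand processing, Furin, a proprotein convertase that cleaves the precursors of several growth factors, VEGF-C among them, was higher in F/- (0.54, adjusted p = 0.0471). Ccbe1, a cofactor in the maturation of VEGF-C, was higher in F/- too, with ratios of 1.63 and 1.16 at passage 3 and 1.01 and 0.22 at passage 1 (mean 1.00, adjusted p = 0.0341), and it rose with passage in F/- by 1.90 (adjusted p = 0.0314). Plau, the urokinase protease, rose with passage by 3.14 in F/- and by 2.46 in F/+. The call of Furin was lost in several settings, with 0.15 by median centring (adjusted p = 0.503) and an adjusted p of 0.0624 with the pair as a block. With the mean of the gene's probes the Ccbe1 calls were lost, by genotype (0.60, adjusted p = 0.0679) and with passage in F/- (1.23, adjusted p = 0.0811).

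None of 13 genes of receptor signalling (Grb2, Plcg1, Src and others) was called in any comparison, with a median of 0.04 for the genotype and with Src the highest (0.41). Of 13 tested genes of the hypoxia response, which is a known regulator of Vegfa, 3 were lower in F/- (Ldha -0.78, Slc2a1 -0.53, Adm -0.35) and 1 was higher (Ndrg1 0.47), with a median of -0.24; the sign of Ndrg1 turned with median centring, to -0.10. With the mean of all probes of a gene, Ldha had -0.29 (adjusted p = 0.105) and Slc2a1 -0.53 (adjusted p = 0.0523), and the scanner's own log ratio gave adjusted p of 0.0584 for Ldha, 0.0722 for Slc2a1 and 0.0798 for Adm. With passage 2 of the 13 fell in F/- (Adm and Ndrg1) and 1 in F/+ (Adm). The F/- calls of both were lost with offset 0, with adjusted p of 0.0622 for Adm and 0.0826 for Ndrg1, and that of Adm with the pair as a block (0.0648). Of 17 tested further angiogenic factors, 3 were higher in F/- (Angpt2 0.45, Cyr61 0.83, Serpinf1 0.83) and 0 lower; 3 rose with passage in F/- (Angptl4, Thbs1 and Ctgf) and 4 in F/+ (these and Cyr61), Thbs1 by 3.53 in F/- and by 3.08 in F/+. Without background subtraction the genotype calls of Cyr61 (adjusted p = 0.0513) and Serpinf1 (0.0534) were lost, and Cyr61 had 0.36 with median centring (adjusted p = 0.0804). Extremes of these lists by genotype that were not called were Vegfd (-0.27), Nrp2 (0.17), Plxna2 (-0.47), Adamts3 (-0.16), Pik3ca (-0.28) and Efnb2 (-0.35).

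**Figure D4:**
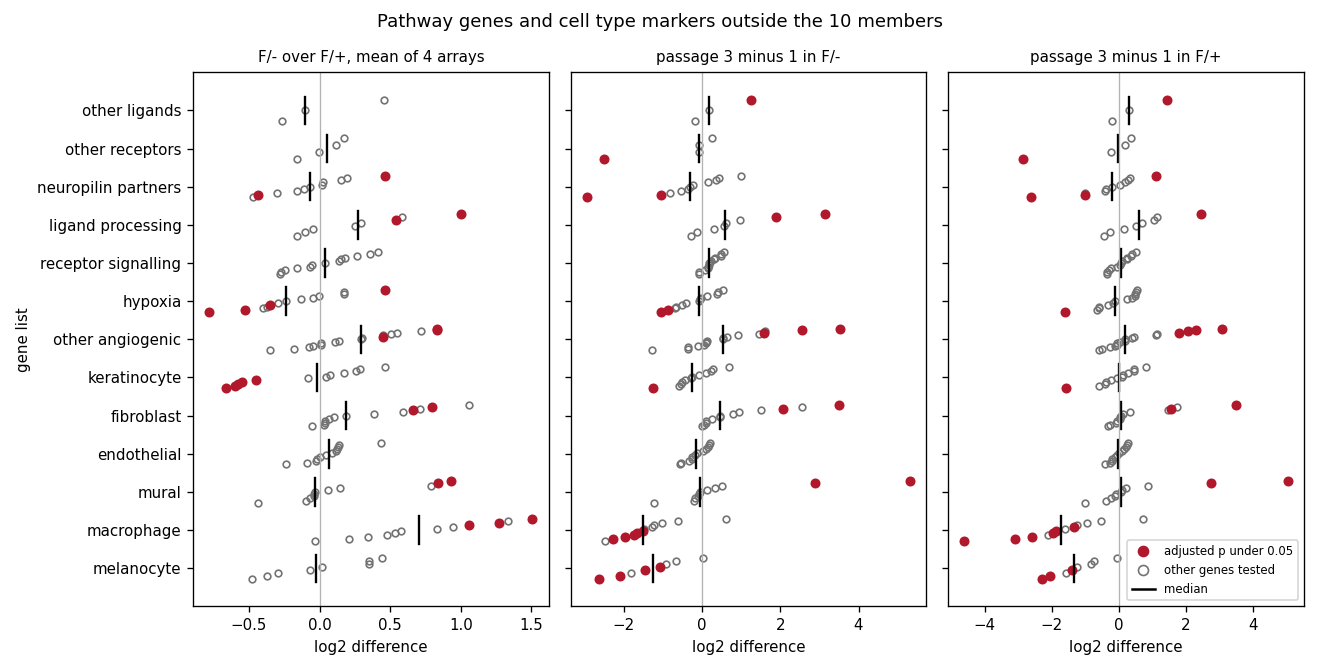
Log2 difference (x axes) of the brightest probe of each gene in 7 pathway lists and 6 lists of cell type markers (rows), for F/- over F/+ as the mean of 4 arrays, passage 3 minus passage 1 in F/-, and the same in F/+. Filled points have an adjusted p under 0.05, open points are the other genes tested and the short line is the median, which is 0.70 for macrophage markers by genotype and -1.49 in F/- and -1.72 in F/+ by passage.

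Markers of several cell types moved with genotype or passage. Fewer cells of a type and less RNA per cell cannot be told apart in these samples, and the part of these markers in the results for the 10 genes was not tested. Of 12 keratinocyte markers 5 were lower in F/- (Krt5, Krt14, Krt15, Col17a1 and Perp; the summed level of the list was 615805 and 582256 in F/- and 786402 and 788938 in F/+ at passage 3, and 681854 and 615826 in F/- and 720719 and 823697 in F/+ at passage 1). Of the 12, 6 lay above 0 by genotype and 6 below, with a median of -0.02 and Sfn highest (0.47). The calls of Krt5, Krt14, Col17a1 and Perp were lost with the scanner's own log ratio, at -0.36, -0.40, -0.45 and -0.34 (adjusted p of 0.0692 to 0.0999), and Col17a1 had -0.30 with the mean of its probes (adjusted p = 0.144). With passage 1 of the 12 fell, Dsc3, by 1.26 in F/- and by 1.58 in F/+. Of 13 fibroblast markers, a cell type known for Pdgfra and Pdgfrb, 2 were higher in F/- (Col5a2 and Postn, which both rose with passage as well). By genotype 12 of the 13 lay above 0 and 1 below, with a median of 0.19. By passage all 13 lay above 0 in F/- (median 0.47, highest Postn at 3.50). In F/+ 9 lay above 0 and 4 below (median 0.05, highest Postn at 3.48, lowest Thy1 at -0.33). The summed level was 11501 and 9406 in F/- and 4957 and 6795 in F/+ at passage 3, and 3301 and 3247 in F/- and 2578 and 3651 in F/+ at passage 1. Of 11 mural markers, a cell type known for Pdgfrb, 2 were higher in F/- (Acta2 and Mcam), with sums of 139552 and 72199 in F/- and 79661 and 50327 in F/+ at passage 3, and 47026 and 52944 in F/- and 23151 and 23545 in F/+ at passage 1. By genotype 5 of these 11 lay above 0 and 6 below, with a median of -0.03 and Notch3 lowest (-0.44). The Acta2 call was lost with the mean of the gene's probes (0.17, adjusted p = 0.196) and with median centring (0.29, adjusted p = 0.184). By passage 5 of the 11 lay above 0 and 6 below in F/- (median -0.06, lowest Cspg4 at -1.23). In F/+ 6 lay above 0 and 5 below (median 0.08, lowest Cspg4 at -1.01). With passage 2 of the 11 mural markers rose in both genotypes: Cnn1, by 5.32 in F/- and by 5.02 in F/+, and Mcam, by 2.89 in F/- and by 2.73 in F/+. Pdgfb, Pdgfc and Vegfc were higher at passage 3 as well. Pdgfrb and the fibroblast sum were both highest in F/- at passage 3. So were the sums of lists that mark no cell type, ligand processing (44037 and 48891) and further angiogenic factors (302455 and 274663).

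Of 12 macrophage markers 3 were higher in F/- (Lyz2, Marco and C1qa), and 5 fell with passage in F/- (Cd68, Mrc1, Marco, C1qa and C1qb) and 6 in F/+ (Cd68, Lyz2, Ctss, Mrc1, Marco and C1qa). Their sum was 15883 and 10274 in F/- and 4500 and 4175 in F/+ at passage 3, and 40575 and 29407 in F/- and 24344 and 27397 in F/+ at passage 1. The genotype call of C1qa was lost without background subtraction (adjusted p = 0.0519). Of 12 endothelial markers, a cell type known for Flt1, Kdr and Nrp1, 0 were called in any comparison, with sums of 3102 and 2832 in F/- and 3874 and 3397 in F/+ at passage 3, and 4561 and 3360 in F/- and 3886 and 3613 in F/+ at passage 1. Among 8 melanocyte markers 0 differed by genotype, and 4 fell with passage in F/- (Dct, Tyrp1, Mlana and Si) and 3 in F/+ (Dct, Mlana and Si). Extremes of the marker lists by genotype that were not called were Sfn (0.47), Lum (-0.06), Col1a1 (1.06), Egfl7 (-0.24), Eng (0.43), Notch3 (-0.44), Cd68 (-0.03), Mitf (-0.48) and Tyrp1 (0.44). No tested marker of these lists was below background in every channel.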

How the data were processed

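The submitters' processing notes name Agilent Feature Extraction 9.1.3.1 for the two-colour arrays. The deposited scanner files hold, per the file headers, the raw intensity (mean signal and median background) of each channel and a log10 ratio of Cy5 over Cy3. The value table deposited by the authors holds log10 ratios equal to that column with the sign turned (largest gap 4.96e-06), with column medians of 0 and -0.000733 at passage 3 and -0.00223 and 0 at passage 1, so its scale, centring and direction are known. The log ratio column of the scanner files, with its sign turned, served for the alternative with the scanner's own ratio. The sign here follows the value table.

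In limma 3.58.1 (R 4.3.3), background in the raw intensity was removed by normexp (offset 50), then loess was run inside each array, with control spots at weight 0 and outlier spots left out. Replicate spots were averaged. A filter on dim probes, which asked for 2 or more arrays with either channel well above background, left 35563 of 41174. Genotype was fitted on log2 ratios of the 4 arrays with both passages as groups, and passage on separate channels after Aquantile (correlation of the channels of a spot 0.741, 35464 probes). Both fits were tested on simulated data. The pair number marks the same mice at both passages, per the series' design text; deviations of same-numbered arrays correlated at -0.00047 over 35464 probes, and the pair as a block was an alternative, given beside results whose call it changes. Other alternatives changed background correction, filter, normalization, probe choice and arrays.

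Every tested probe of the 10 genes is reported. Genes of the other lists are named where their brightest probe was called in a comparison or was the extreme of its list by genotype. Members and lists were chosen with earlier results of these data known. RefSeq promoter windows were read for 8 genes. Of 24 member probes, 19 had an accession that matched a RefSeq symbol, and the others keep the name in the file. One further list of markers is not reported here.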

Additional observations from a re-analysis of the deposited data

Results flagged for a closer look

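The genotype ratio of Vegfb A_52_P436628 lay on opposite sides of 0 at the 2 passages. It was -0.002 and -0.06 at passage 3 and 0.45 and 0.14 at passage 1 (pairs 1 and 2), so that passage 3 minus passage 1 was -0.32. The test of that difference in limma did not pass (adjusted p = 0.870), and the brightest Vegfb probe, with -0.48 and 0.01 at passage 3 and -0.12 and -0.10 at passage 1, did not show it.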

How the results depend on the processing

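Over both passages 3 member genes were called by genotype (2 higher, 1 lower in F/-): 0 when the arrays of a pair were averaged first, and 0 to 5 when 1 array was left out. With passage 3 were called in F/- (0 to 3 with 1 array left out) and 2 in F/+ (0 to 3 with 1 array left out, 1 without background subtraction, with all probes kept or with the mean of all probes of a gene, 4 with the replicate block). The replicate block otherwise changed no member count (3 by genotype over both passages, 3 in F/-, 0 at each passage). Where an array was left out, the lone array was assumed to vary like the others, and the channel correlation of all arrays was kept. The mean ratio over both passages then weighed the passages equally, the lone array as much as both arrays of the other passage. Signs turned for Vegfb A_52_P436628 (-0.0070), Nrp1 A_52_P371237 (-0.0089) and Ndrg1 (-0.10) with median centring, Flt1 A_51_P398723 without early replicate 1 (0.037; -0.90 to 0.037 with 1 array left out) and Pdgfra A_52_P264283 without late replicate 1 (-0.025; -0.025 to 0.14); the cause was not tested. The other member values compared were each 1 probe in 1 comparison and 1 setting. In the settings that keep all arrays, 278 values had the same outcome, called or not called in both, 16 lost a call and 9 gained one. More values lost a call where 1 array was left out. Over all probes, counts moved by more than 1.5 times from 3145 by genotype to 1608 (gene means), 1933 (scanner ratio) and 0 to 3963 (1 array left out) or 0 (pairs averaged), at passage 1 from 0 to 69 (offset 0), in F/- from 1813 to 3938 (block) and 107 to 3120 (1 array left out), and in F/+ from 2006 to 4123 (block) and 187 to 4569 (1 array left out). With 2 mice per genotype and no exchanged dyes, small differences and dye effects are beyond what these arrays can separate, and the 2 member probes near background were not tested.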
